A study of Homo sapiens with 6 samples.

Results

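FGFR1, FGFR2, FGFR3 and FGFR4 encode the receptor tyrosine kinases for fibroblast growth factors (FGFs), FGFRL1 encodes a receptor of the same family that lacks the kinase domain, and FGF19, FGF21 and FGF23 encode the endocrine FGFs. These 8 genes were chosen by name, with earlier results of these data known. Of them, 7 had a probe set, 1 each, among the 1259 probe sets and 927 named genes of the array table. No probe set was matched to FGFRL1. The cells were HCT-15, an established human colon cancer line, in 3 arrays of untreated cells and 3 arrays of cells exposed to 5-aza-2'-deoxycytidine, a nucleoside that replaces cytosine in new DNA and traps the enzymes that maintain its methylation. Values are on the log2 scale after RMA, a method that removes background, aligns the arrays and combines the probes of a set into 1 value. For untreated replicate 3 the title says treated, against its source name and treatment entry, so the members were also tested without it. The titles of the 3 treated arrays say treated but also carry the word control, and their treatment entry says treated. The labels used here give neither dose nor duration. They also do not say whether replicates were separate cultures. The p-values therefore reflect only the spread among these arrays, which may be technical.

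Most FGFs bind heparan sulfate chains beside the cell that makes them, and ligand, chain and receptor form the complex in which the kinases are switched on. The endocrine FGFs bind heparan sulfate weakly, travel in blood and need a klotho protein as coreceptor. In the intestine FGF19 is known as the hormone that bile acids induce in ileal cells and that restrains bile acid synthesis in the liver through FGFR4 and beta-klotho. FGF21 is a metabolic hormone of liver and fat, and FGF23 is a bone hormone that controls phosphate. Colon epithelium carries FGFR2 in a splice form that answers FGFs from the stroma, and FGFR3 is found in epithelia and cartilage.

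The drug acts on methylation of CG dinucleotides, so the CG positions before the start sites are shown for a receptor that rose, a receptor that fell and a hormone gene that was not called. Each sequence is the 250 bases before a transcription start, from RefSeq's GRCh38.p14 table, 5′ to 3′ on the gene's strand, with every CG in capitals. The table matched 5 of the 7 measured members, all but FGFR1 and FGF19. FGFR3 has 1 start in the table (chr4:1793043-1793292, + strand), as has FGF21 (chr19:48755274-48755523, + strand). The FGFR2 window is the farthest upstream of 5 starts (chr10:121598445-121598694, - strand).
FGFR3: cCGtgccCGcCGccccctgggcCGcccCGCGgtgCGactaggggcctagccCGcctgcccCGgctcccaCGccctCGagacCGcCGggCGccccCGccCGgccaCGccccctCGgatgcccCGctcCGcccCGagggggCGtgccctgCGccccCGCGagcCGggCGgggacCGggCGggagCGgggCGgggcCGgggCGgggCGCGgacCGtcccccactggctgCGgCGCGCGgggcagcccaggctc
FGFR2: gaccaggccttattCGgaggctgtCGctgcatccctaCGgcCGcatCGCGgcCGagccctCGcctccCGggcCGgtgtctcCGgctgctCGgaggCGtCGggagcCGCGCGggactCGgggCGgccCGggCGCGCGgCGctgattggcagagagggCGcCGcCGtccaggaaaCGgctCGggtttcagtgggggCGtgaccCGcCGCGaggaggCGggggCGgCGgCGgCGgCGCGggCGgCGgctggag
FGF21: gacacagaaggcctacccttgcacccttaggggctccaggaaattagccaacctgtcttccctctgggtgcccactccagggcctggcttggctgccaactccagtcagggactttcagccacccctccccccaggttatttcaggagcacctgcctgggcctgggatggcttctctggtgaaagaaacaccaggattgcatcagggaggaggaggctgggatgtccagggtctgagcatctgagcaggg
The FGFR3 window holds 40 CG and the FGFR2 window 42, whereas the FGF21 window holds 0. CG reads the same on both strands and cannot overlap itself. Over 35116 windows of this length the median was 11 CG. At least as many as FGFR3 stood in 2.16% of windows and at least as many as FGFR2 in 1.38%. The other FGFR2 starts had 3 to 7 CG. The starts of FGFR4 had 24 and 2, and the start of FGF23 had 8. FGFR3, with 40 CG before its 1 start, rose, and FGFR2, with 42 CG before 1 of its 5 starts, fell. Whether CG count bears on the direction of change was not tested. Methylation was not measured on these arrays, and which start these cells use is not known.

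After treatment FGF19, FGFR3 and FGFR1 rose, FGFR2 fell, and FGFR4, FGF21 and FGF23 were not called. The changes were 2.03-fold for FGF19, 1.98-fold for FGFR3 and 1.29-fold for FGFR1 upward, and 1.45-fold for FGFR2 downward. A probe set was called where limma's test with Benjamini-Hochberg adjustment over all 1259 gave an adjusted p under 0.05. By this rule 4 of the 7 members were called, 3 rises and 1 fall, against 34.8% of all probe sets, with 18.0% rising and 16.8% falling. With every array centred on its own median, 197 probe sets of the whole table rose and 311 fell, in place of 227 and 211, and the members still gave 3 rises and 1 fall. The 3 treated and 3 untreated values did not overlap in 6 of the 7 members, against 46.1% of all probe sets. The median log2 change was 0.14 over the members and -0.01 over all probe sets. In bulk RNA, a change in the number of cells that express a gene and a change in RNA per cell cannot be told apart.

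**Figure D1:**
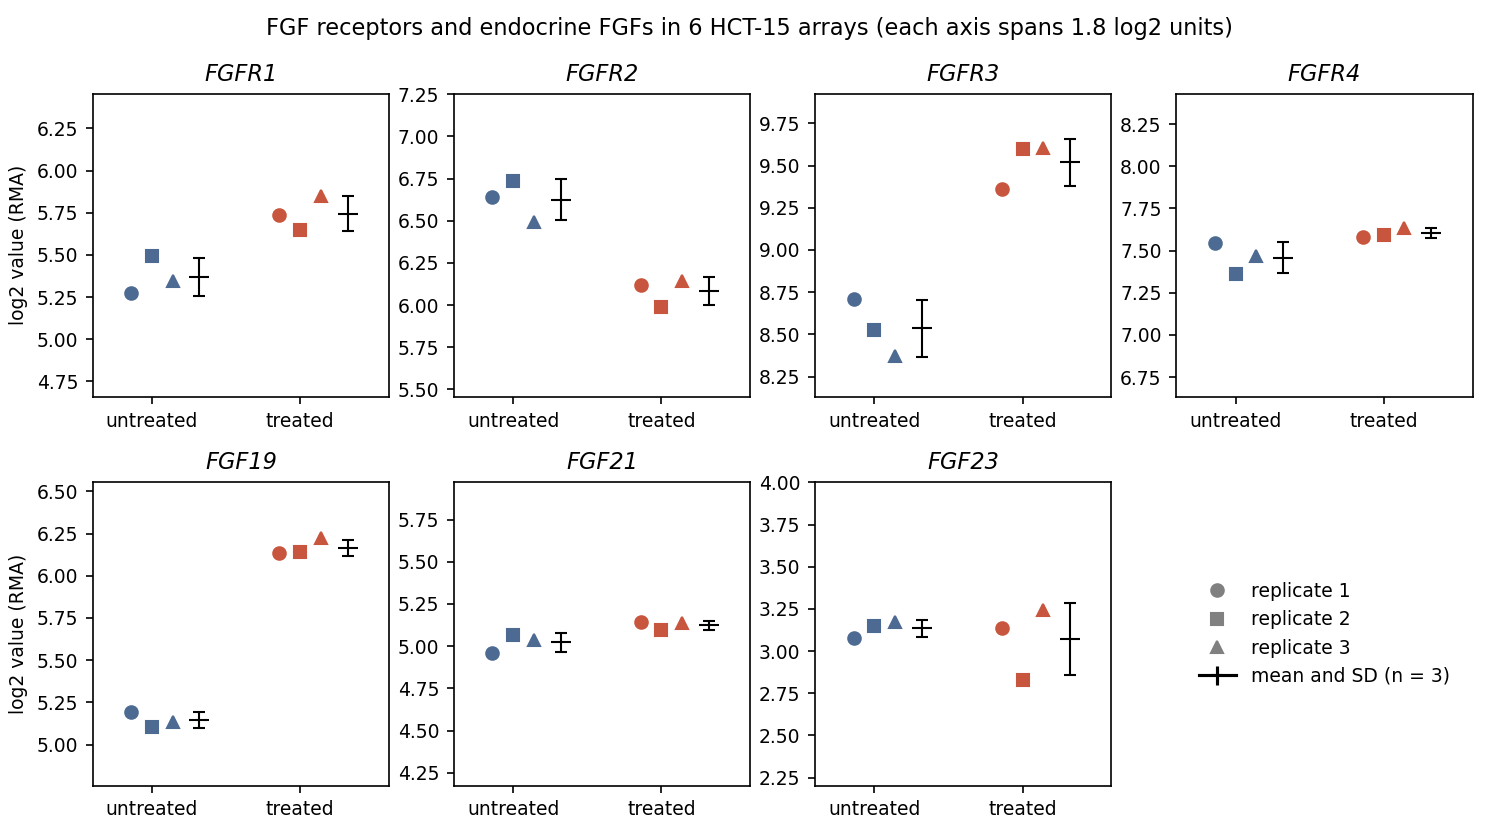
Log2 value of each member (vertical axis, 1.8 log2 units in every panel) in the 3 untreated (blue) and 3 treated (red) arrays. The mean and SD of each group are in black. Symbols mark the replicate number, and no label says that it pairs arrays. The groups stand farthest apart in FGF19 and FGFR3, FGFR2 is lower in treated cells, and the groups overlap in FGF23, where treated replicate 2 is lowest at 2.83.

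FGF19 had the largest change of the 7. Its log2 values were 5.19, 5.11 and 5.14 in untreated replicates 1 to 3, and 6.14, 6.14 and 6.22 in treated replicates 1 to 3. All treated arrays lay above all untreated arrays, with a gap of 0.94 between the groups, while the widest range inside a group was 0.09. Means were 5.15 ± 0.04 (SD, n = 3) untreated and 6.17 ± 0.05 (SD, n = 3) treated. In limma's fit the log2 change was 1.02 ± 0.07 (SE), with an adjusted p = 1.21e-06 and a ratio of treated to untreated of 2.03 (95% confidence interval 1.83 to 2.26). By size FGF19 was the 41st rise of the 1259 probe sets. Of all probe sets, 46.2% were at or below its mean level, and whether its untreated signal exceeds background is not known. Without untreated replicate 3 the log2 change was 1.02 (adjusted p = 1.03e-05).

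FGFR3, a receptor whose activating mutations are known from bone dysplasias and bladder cancer, had the largest change among the receptors. Its log2 values were 8.71, 8.53 and 8.37 in untreated cells and 9.36, 9.60 and 9.61 in treated cells. The lowest treated array was 0.65 above the highest untreated one, against a widest range of 0.34 inside a group. Means were 8.54 ± 0.17 (SD, n = 3) and 9.52 ± 0.14 (SD, n = 3), a log2 change of 0.98 ± 0.10 (SE) with a limma adjusted p = 2.7e-05. The ratio was 1.98 (95% confidence interval 1.69 to 2.32), and 47th among the rises. The signal was bright, with 84.2% of probe sets at or below its mean level. This probe set is named for 1 FGFR3 transcript, and which of the gene's transcripts its probes bind is not given in the sources used here. Without untreated replicate 3, the lowest of the untreated values, the log2 change was 0.90 (adjusted p = 0.000104).

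FGFR2 was the member that fell. Untreated values were 6.64, 6.74 and 6.49, and treated values were 6.12, 5.99 and 6.14. Every treated array lay below every untreated array, by at least 0.35, against a widest range of 0.24 inside a group. The means, 6.62 ± 0.12 (SD, n = 3) and 6.09 ± 0.08 (SD, n = 3), gave a log2 change of -0.54 ± 0.08 (SE) and a limma adjusted p = 0.000452. The ratio of treated to untreated was 0.689 (95% confidence interval 0.606 to 0.783). It was the 82nd fall by size among all probe sets. The name of this set has the ending that Affymetrix gives to sets able to bind more than 1 transcript. Which transcripts these are is not given in the sources used here. Whether the set covers the epithelial splice form of FGFR2, the mesenchymal one or both is therefore not known. Without untreated replicate 3 the log2 change was -0.60 (adjusted p = 0.000375).

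FGFR1, the receptor form common in mesenchymal cells, rose by less. Its values were 5.27, 5.49 and 5.35 untreated and 5.73, 5.65 and 5.85 treated. The groups did not overlap, but the gap of 0.15 was smaller than the widest range inside a group, 0.22. Means were 5.37 ± 0.11 (SD, n = 3) and 5.74 ± 0.10 (SD, n = 3). The log2 change was 0.37 ± 0.08 (SE), the limma adjusted p = 0.00516 and the ratio 1.29 (95% confidence interval 1.14 to 1.48). The probe set carries the same ending as that of FGFR2, and 44.1% of probe sets were at or below its mean level. Its adjusted p was 0.0165 without untreated replicate 3, and over 13 alternative settings it lay between 0.00344 and 0.0477, the highest being that of an ordinary equal-variance test.

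FGFR4, the receptor through which FGF19 acts on liver cells, was not called. It measured 7.54, 7.36 and 7.47 in untreated and 7.58, 7.59 and 7.64 in treated arrays. The treated arrays were the higher ones, by a gap of only 0.04. The log2 change was 0.14 ± 0.07 (SE), the limma adjusted p = 0.161, and the interval of the ratio ran from 0.988 to 1.24. A rise of the size seen in FGFR3 or FGF19 lies outside that interval, and a small rise lies inside it. The adjusted p was 0.217 without untreated replicate 3.

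FGF21 was close to level. Untreated values were 4.96, 5.07 and 5.04, and treated values 5.14, 5.09 and 5.14. The groups were separated by 0.02 only, and the log2 change of 0.10 ± 0.07 (SE) had a limma adjusted p = 0.304. The interval of its ratio was 0.966 to 1.19. The FGF23 probe set gave a dim signal, with 6.35% of probe sets at or below its mean level. It measured 3.08, 3.15 and 3.17 in untreated and 3.14, 2.83 and 3.24 in treated cells. Treated replicate 2 lay below all other arrays. The groups overlapped with or without it, since treated replicate 1 lay inside the untreated range. The log2 change was -0.06 ± 0.10 (SE), with a limma adjusted p = 0.697 and a ratio between 0.818 and 1.12. Without treated replicate 2 the change was 0.06 (adjusted p = 0.682), so FGF23 has no stable direction here. With no detection calls in use, a probe set this dim cannot be told from background.

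**Figure D2:**
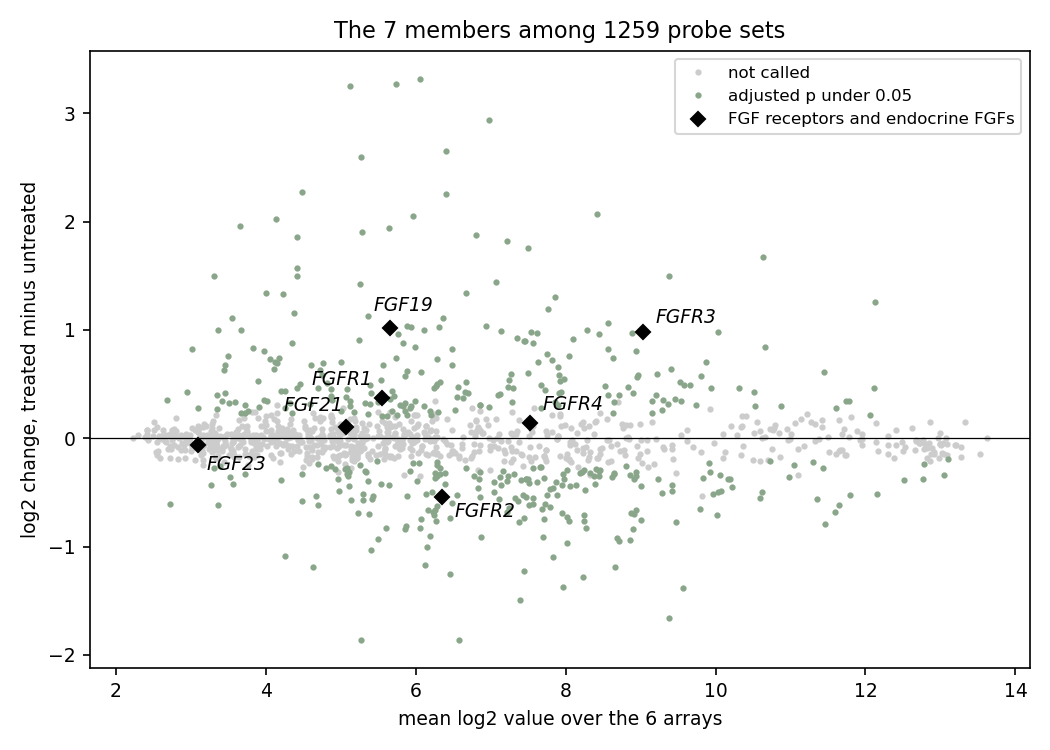
Log2 change, treated minus untreated (vertical axis), against the mean log2 value over the 6 arrays (horizontal axis) for all 1259 probe sets, with called sets in green, others in grey and the 7 members as black diamonds. FGF19 (1.02) and FGFR3 (0.98) lie among the upper called sets, FGFR2 (-0.54) among the lower, and FGFR4, FGF21 and FGF23 within the grey band near 0.

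At 1.5-fold or more, 2 members were called, FGF19 and FGFR3, both upward, against 13.4% of all probe sets and 7.94% for rises alone. FGFR2 at 1.45-fold lay just under that size. By adjusted p alone, the 4 receptors gave 2 rises, 1 fall and 1 without a call, and the 3 hormones 1 rise and 2 without a call. Levels of different genes are not compared, because each probe set has its own response.

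Of the ligands that act near their source, FGF18 alone was called. All 15 paracrine FGF genes were measured, and 0 rose, 1 fell and 14 were not called, against 37.3% called over the 927 named genes with 1 probe set each (19.7% rises and 17.6% falls). At an unadjusted p under 0.05 the count was likewise 1, with 0 rises, against 44.6% of named genes in either direction, and the ordinary equal-variance test also called 0 rises and 1 fall. The median log2 change of the 15 was -0.03 and the range -0.27 to 0.11. With dim probe sets left out (mean level under 4.9), only 7 of the 15 were tested, with 0 rises and the same 1 fall. The rest were dim, and whether their signal exceeds background is not known, so the lack of calls says little about them. The fall was FGF18, a ligand of FGFR3 that colon tumours are known to express. FGF18 went from 6.46 ± 0.08 (SD, n = 3) to 6.18 ± 0.08 (SD, n = 3), a log2 change of -0.27 ± 0.08 (SE) with a limma adjusted p = 0.0158. That call was lost without untreated replicate 2 (adjusted p = 0.0674) and without treated replicate 1 (adjusted p = 0.0505). FGF10, a ligand of the epithelial FGFR2 form, was called as a further fall after quantile normalization (adjusted p = 0.0456) and median centring (adjusted p = 0.0319). Its signal was dim, with 10.3% of probe sets at or below its mean level. FGF7, another ligand of that form, was at 2.40 untreated and 2.44 treated, with 0.477% of probe sets at or below its mean level.

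The 4 intracellular FGF homologous factors, relatives that are not secreted and are known as partners of sodium channels, gave 2 rises and 0 falls in limma's test. Over all 927 named genes 37.3% were called. At an unadjusted p under 0.05 there were 3 of the 4, all higher in treated cells, against 44.6% of all named genes in either direction, and the ordinary test called 2 rises and 0 falls. FGF11 was 1.95-fold higher (log2 change 0.97 ± 0.09 SE, limma adjusted p = 1.23e-05) and FGF13 rose by 1.11 ± 0.14 (SE) on the log2 scale (limma adjusted p = 0.00011). FGF13 started from 3.00, a dim level that cannot be told from background, so no fold is given. FGF12 and FGF14 had log2 changes of 0.24 and 0.11 and were not called. With dim probe sets left out (mean level under 4.9), FGF12, FGF13 and FGF14 were no longer tested. FGF11, the only gene left, was the 1 rise that remained.

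No probe set was matched to KL or KLB, the klothos on which endocrine FGFs depend. Of the 9 measured syndecans and glypicans, cell surface carriers of heparan sulfate, 1 rose, 1 fell and 7 were not called. Over all 927 named genes, 37.3% were called. The rise was SDC4, syndecan-4, from 9.52 ± 0.08 (SD, n = 3) to 10.22 ± 0.07 (SD, n = 3), 1.63-fold with a limma adjusted p = 3.6e-05, and a further probe set of the gene also rose (log2 change 0.58). The fall was GPC4, glypican-4, 1.45-fold lower with a limma adjusted p = 0.000983. GPC5, a dim probe set, was not called (limma adjusted p = 0.0586). It was called as a further fall after quantile normalization (limma adjusted p = 0.0376) and median centring (0.0143). The same held with an intensity trend (0.0434), with array weights (0.0431) and without untreated replicate 1 (0.0457). The median log2 change of the 9 was 0.11. Of the 11 genes that sulfate or edit heparan sulfate, 1 rose, 1 fell and 9 were not called, against the same share. Their median log2 change was -0.04.

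HS6ST2, which adds the 6-O-sulfate that FGF receptor complexes use, measured 2.57, 2.78 and 2.69 untreated and 4.68, 4.85 and 4.38 treated. These are dim values in untreated cells and all 3 treated arrays stood far above them. The log2 change was 1.96 ± 0.11 (SE) with a limma adjusted p = 3.96e-07. No fold is given for it, because an untreated level this low cannot be told from background. HS2ST1, the 2-O-sulfotransferase, had a log2 change of -0.22 ± 0.08 (SE) and a limma adjusted p = 0.0468. That call was lost in 9 of its 13 alternatives, with adjusted p up to 0.172, the highest without treated replicate 2. The editing sulfatases SULF1 and SULF2 had log2 changes of -0.05 and 0.06 and were not called. The SULF1 signal was dim, with 5.96% of probe sets at or below its mean level. No probe set was matched to any of 22 listed adaptors, modulators and targets of FGF signalling, so output of the pathway was not analysed here.

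**Figure D3:**
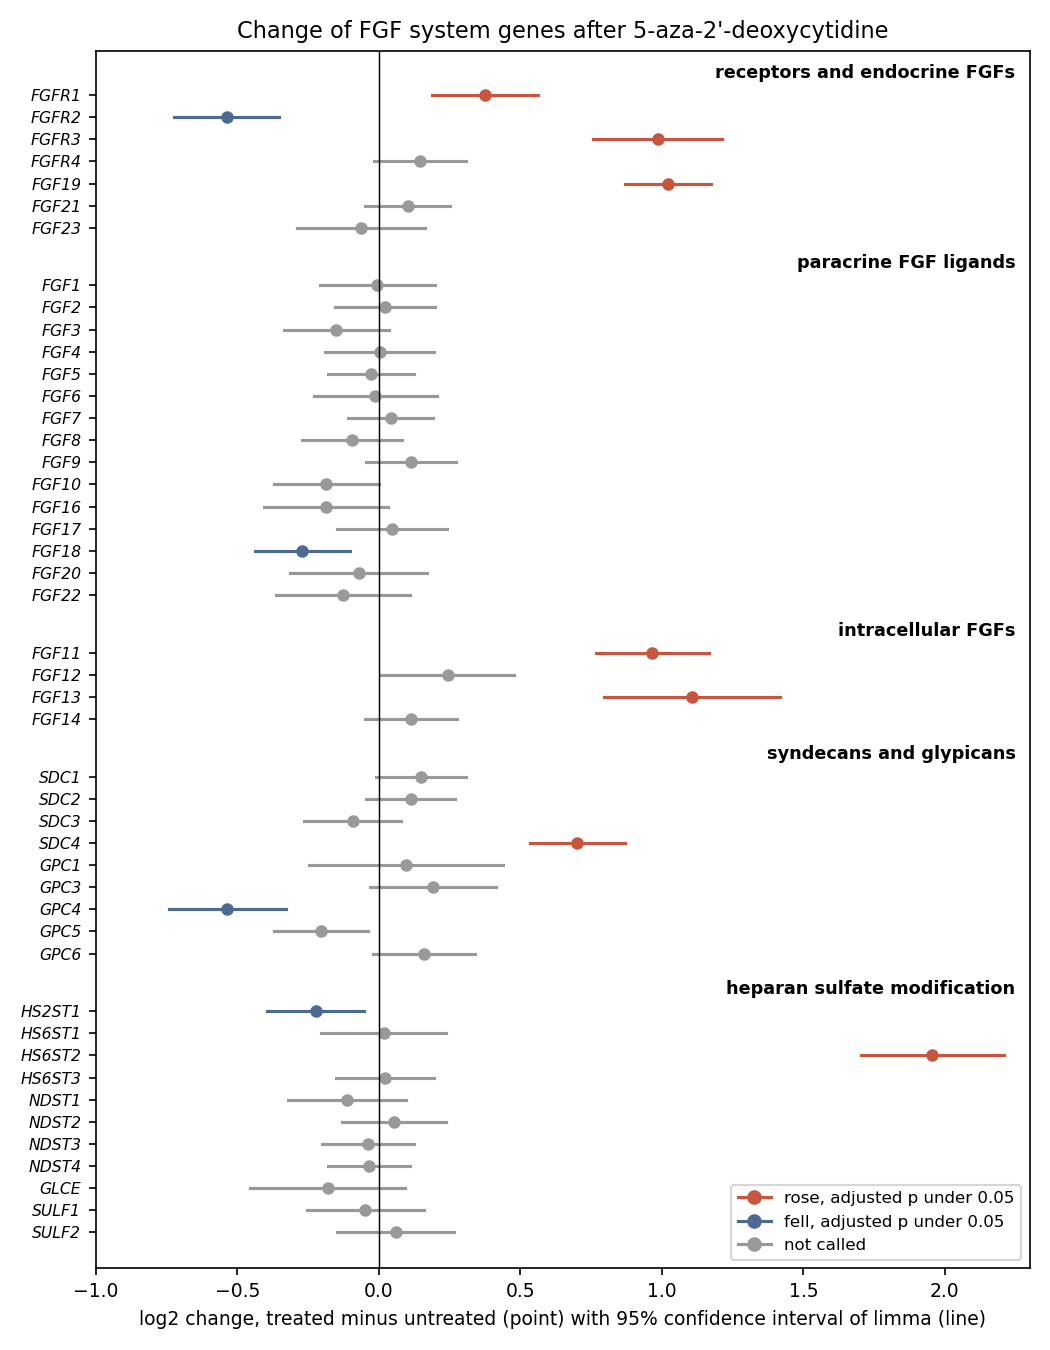
Log2 change, treated minus untreated, with its 95% confidence interval from limma (horizontal axis) for each measured gene of the FGF system, grouped by role; red rose, blue fell and grey was not called. The paracrine ligands lie between -0.27 and 0.11, while FGF19, FGFR3, FGF11, FGF13, SDC4 and HS6ST2 stand to the right and FGFR2 and GPC4 to the left.

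Receptor tyrosine kinases of other families, 8 of 26 listed being measured, gave 1 rise and 2 falls, against 37.3% of named genes called. Their median log2 change was 0.01. MET, the receptor of hepatocyte growth factor, had the rise (1.27-fold, limma adjusted p = 0.013), and ERBB3 (1.36-fold lower, adjusted p = 0.00485) and PDGFRB (1.4-fold lower, adjusted p = 0.00186) had the falls. The MET call was lost without treated replicate 1 (adjusted p = 0.0645), with median centring (0.0511) and with the ordinary test (0.091). The ERBB3 call was lost in the ordinary test (adjusted p = 0.07), and the other probe set of ERBB3 was not called (log2 change -0.02). The largest of these log2 changes by size was that of PDGFRB, -0.48, beside 0.98 in FGFR3.

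The genes whose 6 values followed FGF19 most closely were SRGN, FST and COL9A2. Likeness was the root mean square difference over the 6 arrays, after each gene's untreated mean was taken off, among 920 genes. It was 0.038 for SRGN, the granule proteoglycan serglycin, 0.057 for FST, the activin inhibitor follistatin, and 0.060 for COL9A2, a chain of collagen IX. Their log2 changes were 1.00, 1.00 and 1.03, near that of FGF19 because the genes were chosen for this likeness. SRGN started from 3.17, a dim level that cannot be told from background.

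Cell type markers in the table were few. Of 16 colon epithelium markers 3 were measured, the galectin LGALS4 (9.54 untreated and 9.03 treated), the mucin MUC13 (7.97 and 8.93) and the goblet cell mucin MUC2 (5.57 and 5.67). MUC13 rose and LGALS4 fell. The mean log2 value over the 3 was 7.69 in every untreated array and 7.86 to 7.90 in treated arrays. Of 16 leukocyte markers 4 were measured, with CD33 rising and CD22 falling, and array means of 4.76 to 4.89 untreated and 4.89 to 5.04 treated. Of 15 stromal and endothelial markers 6 were measured, with PECAM1 rising and PDGFRB falling, and array means of 3.87 to 4.13 and 3.94 to 4.02. RMA values have no true 0, and DCN and LUM, defining fibroblast genes, were at or below 2.76 in both groups. Of the same list, SELE measured 2.97 untreated and 2.87 treated, and PDGFRB 5.22 and 4.74. PECAM1 measured 4.98 and 5.27, and CD34 5.58 and 5.58, so the list as a whole was not uniformly dim. The part of these markers in the FGF results was not tested.

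**Figure D4:**
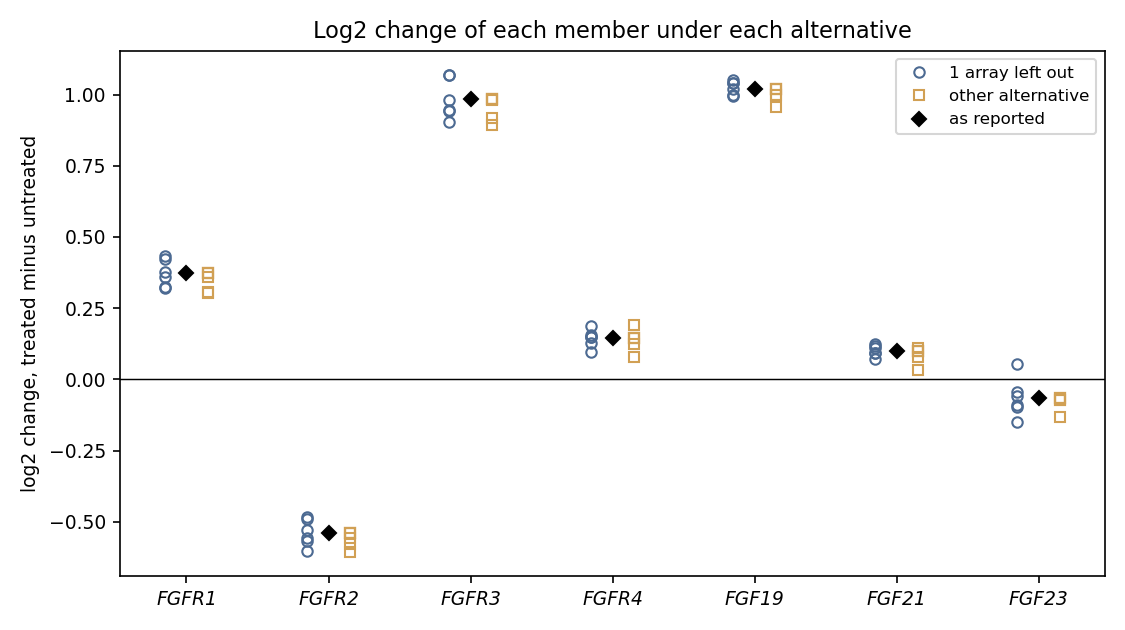
Log2 change, treated minus untreated (vertical axis), of each member as reported (black), with 1 array left out (blue circles) and under the other alternatives (squares). FGFR1, FGFR2, FGFR3 and FGF19 stay on 1 side of 0 throughout, and FGF23 crosses 0 without treated replicate 2 (0.06).

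The 4 called members kept their call and direction in every one of 13 alternatives. FGF19 lay between 0.96 and 1.05 and FGFR3 between 0.89 and 1.07 on the log2 scale. FGFR2 lay between -0.60 and -0.48 and FGFR1 between 0.30 and 0.43. FGFR4 and FGF21 stayed without a call, with lowest adjusted p values of 0.06 and 0.127.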

How the data were processed

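Per the labels' protocols, Trizol-extracted total RNA was made into biotinylated cRNA by the Affymetrix procedure. In the deposited table, made by the authors, values of 6 arrays are log2, as judged from their range (2.13 to 13.67) and array medians (5.81 to 5.92). The submitters' processing notes name RMA, with version and settings not given in the sources used here. RMA compresses differences between dim probe sets, so folds of dim genes may be understated. The number of arrays limits the precision.

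RefSeq transcript identifiers in probe set names were matched without versions to RefSeq (GRCh38.p14, names and promoter windows only), giving 1 symbol for 1043 of 1259 probe sets. For genes outside the 8 members, the probe set with the highest mean stood for the gene. Groups came from the treatment entry. At most 5 values were identical between any pair of arrays. Tests used R 4.3.3 and limma 3.58.1 (lmFit, eBayes, two-sided, Benjamini-Hochberg over 1259 probe sets, 3 arrays per group), tested on simulated data. Errors are standard errors of the fit. Members and lists were chosen with earlier results of these data known. Named were all members, each list's called genes, and the 3 genes nearest the member with the largest change. Some uncalled list genes, such as FGF10, and the genes beside the members were named outside this rule. Alternatives were quantile normalization, median centring, a filter on dim probe sets (839 kept, from a mean of 4.9 up), an intensity trend, array weights, a replicate block, omission of each array, an ordinary test, and thresholds of 0.01 and 0.1.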

Additional observations from a re-analysis of the deposited data

How the results depend on the processing

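The count of called members was 4, with 3 rises and 1 fall, under all 13 alternatives and at adjusted p thresholds of 0.01 and 0.1. With 1 array left out FGF23 ranged from -0.15 to 0.0552, reversing without treated replicate 2 and never called, and lies below the level at which dim probe sets were left out, so it has 12 alternatives. With 1 array left out, FGFR3 ranged from 0.902 to 1.07 and FGF19 from 0.994 to 1.05. The deviations of same-numbered arrays correlated at -0.274, 0.0372 and -0.111. With only 3 arrays per group, such correlations cannot decide whether the numbers pair arrays. Correlations across numbers reached 0.422 (untreated 1 with treated 3), 0.413 (untreated 2 with treated 1) and 0.225 (untreated 3 with treated 2), and no label ties those arrays. With the replicate number as a block, 394 probe sets were called in place of 438 and the members gave the same 4 calls (FGFR1 adjusted p = 0.0245, FGFR2 0.00622, FGFR3 0.00152, FGF19 0.000219). The median change of all probe sets moved from -0.0118 to -0.054 after quantile normalization and -0.0791 after median centring. Among listed genes, CD22 lost its call without untreated replicate 2 (adjusted p = 0.0527) and PECAM1 in 6 alternatives (up to 0.173). Signal over background is unknown for every probe set, those of FGF19 and FGFR1 included. This limits dim probe sets most, among them those of FGF23, FGF7, FGF10, FGF13, GPC5, SULF1, SRGN and HS6ST2.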

Other observations

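Genes beside the members in RefSeq's order of protein-coding genes were looked up to 5 genes away on each side, a choice made after the data were seen. FGF4 and FGF3 lie 1 and 2 genes from FGF19, and neither was called. FGF4 measured 5.63, 5.63 and 5.88 untreated and 5.63, 5.74 and 5.77 treated, a log2 change of 0.00 ± 0.09 (SE). FGF3 had a log2 change of -0.15 ± 0.08 (SE). FGF19 rose by 1.02 beside them. FUT1 and FUT2, fucosyltransferases that make the blood group H antigen, lie 1 and 5 genes from FGF21. Both fell, FUT1 1.28-fold (limma adjusted p = 0.0404) and FUT2 1.88-fold (limma adjusted p = 4.69e-05), where FGF21 was not called. The FUT1 groups overlapped, since untreated replicate 3 (8.56), whose title says treated, lay below treated replicate 3 (8.62). FGF6, 1 gene from FGF23, had a log2 change of -0.01 and HK3, a hexokinase gene 3 genes from FGFR4, one of -0.03, neither called. No gene that close to FGFR1, FGFR2 or FGFR3 was measured. IDUA, which encodes the lysosomal enzyme iduronidase and lies 2 genes from FGFRL1, was 1.46-fold lower (limma adjusted p = 0.000783). These calls stand beside 37.3% called over all 927 named genes.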
